A study of Mus musculus with 9 samples.

Results

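Long intergenic noncoding RNAs (lincRNAs) were described in the RNA-seq data of pre-cDCs, the committed precursors of conventional dendritic cells (cDCs), by tissue and genotype. The members were the genes with the GENCODE M21 biotype lincRNA that lie on autosomes and have at least 50 counts in at least 3 of the 9 libraries. This rule was applied to 51912 identifiers, of which 4797 were lincRNA genes and 4152 were autosomal lincRNA genes, and it kept 120. The members were thus chosen by their measured counts, and a member that reached 50 counts in 1 tissue alone had to be high there. By library, 45 members had 50 counts in all 9, 18 had 50 counts in exactly 3, 101 passed with BM libraries alone, and 11 passed only through the 3 spleen libraries. The deciding value is the third highest count of a gene. It was 50, 52 and 52.8 in 4833403J16Rik, Gm4208 and 4930562F07Rik, the members nearest above the threshold. Nearest below were Gm36723, 9330175E14Rik and A930038B10Rik, with 48, 46 and 45.

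Pre-cDCs were sorted from mixed BM chimeras. The hosts, BL/6 mice carrying both CD45.1 and CD45.2, were lethally irradiated and then given equal parts of WT marrow (CD45.1) and DNGR-1 KO marrow (Clec9aCre/Cre, CD45.2). There were 3 samples of each genotype from BM, and from spleen 2 of KO cells and 1 of WT cells, with cells of 2 mice pooled in each. Mice entered experiments at 6 to 12 weeks of age. The KO line carries Cre at both alleles of Clec9a, the gene of the dead-cell receptor DNGR-1, and was backcrossed 10 times to C57BL/6J. Cells of both genotypes shared an irradiated host. For WT samples the labels disagree, since the description has CD45.2 where another field has CD45.1. The library kit used total RNA depleted of ribosomal RNA, which keeps RNAs that lack a poly(A) tail.

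Totals were 17103806 to 23722298 counts per library, so that 3 counts correspond to 0.126 to 0.175 CPM (counts scaled to a common library total). Clec9a had 905 to 1766 counts in WT BM and 2459 in WT spleen, against 1 in each KO BM library and 0 in both KO spleen libraries. All 8 pre-cDC marker genes had over 3 counts in all 9 libraries. Of these, 0 were called higher in spleen and 1 lower, Irf8 (log2 fold change -1.345). The tissues differed in markers of other cells. All 7 T cell markers were higher in spleen, where their summed level was 865 to 3446 CPM against 1.02 to 10.03 CPM in BM, as were 5 of 7 NK cell markers and 4 of 7 macrophage markers, while the lineage markers of T, B, NK and erythroid cells were excluded in the sort. Erythroid markers summed to 8622 to 49860 CPM in spleen and 120 to 638 CPM in BM. All 7 neutrophil markers and all 6 G2/M genes were lower in spleen, the latter at 30.1 to 113 against 2259 to 2766 CPM. Transcripts of 4 Y-linked genes totalled 1193 and 1807 counts in the KO spleen libraries and 0 in the WT spleen library, so that genotype and donor sex cannot be told apart in spleen. In BM they totalled 341, 9 and 0 in KO and 0, 0 and 1 in WT. Donor sex was thus uneven between the tissues too, and its part in the tissue comparison was not tested. In bulk samples, fewer cells of a type and less RNA per cell cannot be told apart.

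LincRNAs are transcribed by RNA polymerase II from their own promoters between protein-coding genes. Many, though not all, are spliced like mRNAs, and as annotated they are not translated into a known protein. Some stay in the nucleus and lie in bodies there, as Malat1 does in speckles and Neat1 in paraspeckles. Others serve as the primary transcript from which microRNAs or small nucleolar RNAs (snoRNAs) are cut, and in leukocytes the hosts of miR-142 and of the miR-17 to miR-92 cluster are the familiar examples. Many are expressed in only a few cell types.

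Of the 120 members, 9 held a microRNA, snoRNA or small Cajal body RNA gene on their own strand, 7.5% against 1.76% of the other autosomal lincRNAs, which is a description of annotated genes that differ in expression and length. The mature microRNAs of Mir142hg and Mir17hg are shown because both hosts are named on what follows, one being higher in spleen and the other varying between libraries. The libraries measured the hosts and not the mature microRNAs. Sequences are from RefSeq on GRCm38.p6, 5′ to 3′, with the seed (bases 2 to 8) in capitals. Mir142hg (chr11:87755577-87757270, plus strand) gives both of these:
miR-142a-5p: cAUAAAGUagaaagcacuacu
miR-142a-3p: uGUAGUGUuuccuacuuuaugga
Mir17hg (chr14:115042879-115046727, plus strand) carries 6 microRNA genes, whose main arms fall into 4 seed groups. miR-17-5p and miR-20a-5p share one seed, miR-19a-3p and miR-19b-3p share another, and miR-18a-5p and miR-92a-3p each have their own:
miR-17-5p: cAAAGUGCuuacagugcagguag
miR-20a-5p: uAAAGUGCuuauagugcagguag
miR-18a-5p: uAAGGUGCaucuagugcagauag
miR-19a-3p: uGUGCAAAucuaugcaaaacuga
miR-19b-3p: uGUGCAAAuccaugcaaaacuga
miR-92a-3p: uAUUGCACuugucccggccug
The other members with such genes were Snhg20 (a small Cajal body RNA and Mir6516), Snhg6 (Snord87), Snhg12 (Snora16a, Snora44, Snora61 and Snord99), Epb41l4aos, 2700038G22Rik (Snord93), 2900076A07Rik (Mir1839) and 4833445I07Rik (Mir191 and Mir425).

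The members were longer than the lincRNAs that did not pass the rule, with a median exon length of 2318 bp against 982 bp, and had a median of 2 annotated transcripts against 1. They lay nearer to protein-coding genes, with a median of 18228 bp between the start sites against 60557.5 bp. Of the members, 14 (11.7%) ran divergently from a protein-coding start within 5 kb, against 8.51% of the other autosomal lincRNAs. For 49 members an exon overlapped an exon of another gene, in 42 of them on the opposite strand, and since no strand setting is given in the sources used here, reads of both genes cannot be told apart there. No member lay in the chromosome 1 congenic interval that the study corrected for. One member, 2310001H17Rik, next to the activation marker gene Cd69, lay within 5 Mb of Clec9a.

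Levels were compared between members per kb of exon length, as the mean of the 2 tissue means in CPM per kb. The highest were Gm26917 at 262, AW112010 at 247, Gm10076 at 110, Malat1 at 94.1, Gm28875 at 84.9, Gm42418 at 54.2, Tmem250-ps at 49.9, Gm20186 at 46.4, 1810058I24Rik at 25.3 and Gm26825 at 22.5. Gm26917 (chr17:39843013-39846341) alone took 10.1% to 37.3% of the summed CPM of the members, depending on the library. It and its neighbour Gm42418 (chr17:39846958-39848788) lie side by side, and Gm42418 overlaps an annotated ribosomal RNA gene. The part of ribosomal RNA in their counts was not tested. Gm26917 ranged from 589 to 1397 CPM in BM and measured 298 CPM in WT spleen, 797 and 1415 CPM in KO spleen. The spleen libraries lay both below and above the BM range. Without these 2 genes the members summed to 1853 to 2230 CPM in BM and to 2612, 3662 and 3103 CPM in WT spleen and KO spleen 1 and 2.

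**Figure D1:**
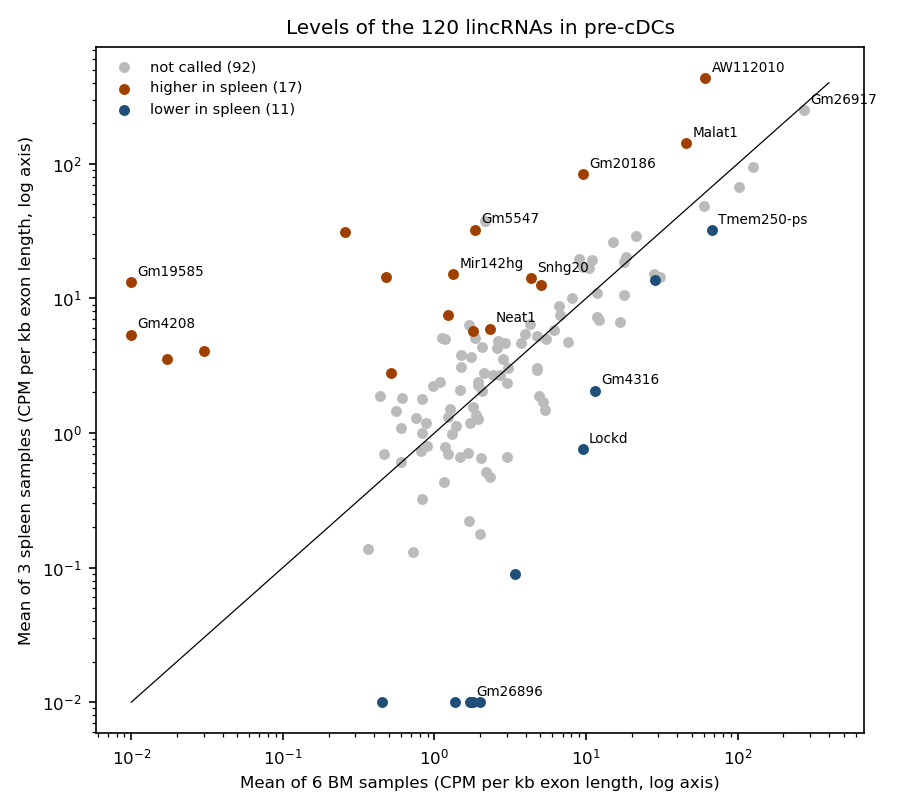
Mean level of each of the 120 lincRNAs in the 6 BM samples (x axis) and the 3 spleen samples (y axis), in CPM per kb of exon length on log axes, with values under 0.01 drawn at 0.01 and the diagonal marking equal levels. The 17 lincRNAs higher in spleen (orange) include AW112010, Malat1 and Gm20186 among the most abundant, and 5 of the 11 lower ones (blue) lie on the lower edge because their spleen counts were 0.

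Spleen pre-cDCs were compared with BM pre-cDCs in one fit of the 9 samples that included genotype. Of the 120 members, all of which could be tested, 28 passed an adjusted p of 0.05 in edgeR's quasi-likelihood test (23.3%), beside 19.5% of the 13468 genes tested. In spleen 17 members were higher (14.2%, beside 7.28% of genes) and 11 were lower (9.17%, beside 12.3%). The selection bears on these counts. Of the called members, 8 had passed the rule only through the spleen libraries, and all 8 were among the higher ones. They were Gm19585, Gm5547, Gm47015, Mir142hg, 4833403J16Rik, 2310031A07Rik, Gm4208 and Gm28935. A further 7 had no spleen library at 50 counts, and all 7 were lower. For these members the direction is not independent of the rule. The other 13 had 50 counts in libraries of both tissues. The median log2 fold change of the members was 0.04, beside -0.18 over all genes tested. By the same count rule, 19% of 10100 protein-coding genes, 28.7% of 80 antisense RNAs and 19% of 84 processed transcripts were called. In all 28 called members, the 3 spleen values lay outside the range of the 6 BM values. The calls were made on these same values, so the separation is not further support for them. It was also seen in members without a call, such as A530010L16Rik and Gm26825. The share of all genes tested with such a separation is not given here, so the count is no result about the members.

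Among the nuclear structural RNAs, Malat1 (chr19:5795690-5802672), the scaffold-associated RNA of nuclear speckles, measured 425, 291 and 312 CPM in WT BM and 283, 332 and 269 CPM in KO BM. In spleen it measured 693 CPM in WT and 1328 and 964 CPM in KO. Every spleen library was above every BM library, and the log2 fold change was 1.64 ± 0.24 (SE, adjusted p = 0.00204). Neat1 (chr19:5824708-5845478), on which paraspeckles are built, measured 26.4 to 48.8 CPM in WT BM, 50.9 to 66.8 CPM in KO BM and 160, 96.3 and 115 CPM in the WT and the 2 KO spleen libraries. Its log2 fold change of 1.40 ± 0.31 (adjusted p = 0.0126) fell to 0.81 without the WT spleen sample and then no longer passed the test. 2900097C17Rik, the mouse gene of NORAD, an RNA that binds Pumilio proteins, did not pass, with 87.6 to 175 CPM in BM and 137, 31.3 and 55.1 CPM in spleen (log2 fold change -0.93 ± 0.42, adjusted p = 0.154). Of the list of structural RNAs that this group came from, 4 genes could be tested and 2 were higher in spleen, beside 7.28% of all genes tested. With 4 genes this is no result about the list.

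The most abundant lincRNA that was higher in spleen was AW112010 (chr19:11047612-11055808), which is induced by interferon and microbial products in leukocytes. It measured 37.6 to 63.8 CPM in the BM libraries and 210, 383 and 449 CPM in spleen. The tissues did not overlap, at a log2 fold change of 2.71 ± 0.24 (adjusted p = 0.000163). Gm28935, which lies among the Ms4a genes on the same chromosome arm, had 0 to 15 counts in BM and 135, 121 and 234 counts in spleen, with a log2 fold change of 4.96 ± 1.05 (adjusted p = 0.0105). Its nearest coding gene, Ms4a4a, had a log2 fold change of 3.20 ± 1.38 and did not pass.

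Gm20186 (chr6:18845910-18848207) and Gm26809 (chr6:18844220-18847360) overlap on opposite strands beside Lsm8, a subunit of the spliceosomal LSM ring. Gm20186 measured 6.71 to 12.8 CPM in BM and 90.9, 92.4 and 78.9 CPM in spleen, so that WT and KO spleen were close. Its log2 fold change was 3.20 ± 0.25 (adjusted p = 9.4e-05). Gm26809 measured 11.5 to 17.5 CPM in BM and 35.0, 37.1 and 40.3 CPM in spleen, with a log2 fold change of 1.32 ± 0.29 (adjusted p = 0.0121). Because they share 855 bp of exon, the 2 differences are not separate measurements. Lsm8 itself had a log2 fold change of -0.22 ± 0.24.

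Several members that had passed the rule only through the spleen libraries were low or near 0 in BM. Gm19585 (chr17:51986415-52163976), whose nearest coding gene is Satb1, a chromatin organiser of lymphocytes, had 1 count in the 6 BM libraries together. In spleen it had 96 counts in WT and 469 and 1477 counts in KO (summed ratio 4120, 95% counting interval 738 to 163000, adjusted p = 9.4e-05). The spleen libraries followed the same order in Gm19585 (5.69, 26.1 and 62.4 CPM) as in the summed T cell markers (865, 1258 and 3446 CPM). That order is not particular to Gm19585, since AW112010 and Gm5547 shared it, and so did Gm4316, which was lower in spleen. The part of T cell RNA in the Gm19585 difference was not tested. Gm47015 had 5 counts in BM and 156, 224 and 169 counts in spleen (ratio 221, interval 94.3 to 684, adjusted p = 0.0038). Gm4208 had 0 counts in all 6 BM libraries and 52, 67 and 171 counts in spleen, at least 30.4-fold higher. It lies 129085 bp from Nrp2, a semaphorin co-receptor. Gm5547 (chr3:105815540-105817357), 14204 bp from the small GTPase gene Rap1a, measured 1.09 to 2.23 CPM in BM and 21.6, 26.3 and 29.7 CPM in spleen, with a log2 fold change of 4.21 ± 0.47 (adjusted p = 0.000548).

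A pair of higher members lay beside immune genes that were higher too. 4833403J16Rik (chr6:48755338-48756368) starts 9141 bp from Gimap5, a GTPase of lymphocyte survival, and had 4 counts in BM against 50, 52 and 158 counts in spleen (ratio 131, interval 50.6 to 485, adjusted p = 0.00473). Gimap5 was at a log2 fold change of 5.19 ± 0.64. 2310031A07Rik (chr11:46440362-46447248) starts 7687 bp from Havcr2, which encodes the inhibitory receptor TIM-3 of cDC1s and T cells. It had 0 to 14 counts in BM and 231, 1340 and 110 counts in spleen, so that KO spleen 1 was far above the other spleen libraries (log2 fold change 6.89 ± 1.40, adjusted p = 0.00868). Havcr2 had a log2 fold change of 3.76 ± 1.14 (adjusted p = 0.0475). An exon of 2310031A07Rik overlaps Med7 on the opposite strand.

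Of the 9 small RNA hosts, Mir142hg and Snhg20 were called higher in spleen and none lower, beside 7.28% and 12.3% of all genes tested. Mir142hg, the host of the haematopoietic miR-142a shown above, had 14, 11 and 5 counts in WT BM and 4, 3 and 3 counts in KO BM, against 103 counts in WT spleen and 68 and 56 counts in KO spleen. All spleen libraries were above all BM libraries (log2 fold change 3.94 ± 0.67, adjusted p = 0.00409 over an annotated exon length of 269 bp). Snhg20 measured 7.76 to 17.5 CPM in BM and 46.9, 32.7 and 39.4 CPM in spleen (log2 fold change 1.82 ± 0.32, adjusted p = 0.0045), and 303 bp of its exons are shared with the small RNAs it holds. Mir17hg, host of the proliferation-linked cluster, had 78, 131 and 56 counts in WT BM and 111, 97 and 10 in KO BM. In spleen it had 1 count in WT and 0 and 108 in KO. KO spleen 2 lay within the BM range and the other spleen libraries below it, and the difference did not pass (log2 fold change -1.64 ± 1.76, adjusted p = 0.585).

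Of the other small RNA hosts, Snhg6, whose Snord87 guides ribosomal RNA modification, measured 11.6 to 29.7 CPM in BM and 37.4, 33.7 and 18.5 CPM in spleen, with overlap (log2 fold change 0.87 ± 0.37, adjusted p = 0.136). Epb41l4aos (0.47 ± 0.55) and Snhg12 (0.54 ± 0.54) also did not pass. In the hosts of lower level the spleen libraries lay far apart. 2700038G22Rik had 60 to 130 counts in BM and 0, 57 and 0 in spleen. 4833445I07Rik, which holds Mir191 and Mir425, had 28 to 98 counts in BM and 35, 200 and 0 in spleen. 2900076A07Rik, which holds Mir1839, had 35 to 83 counts in BM and 90, 27 and 356 in spleen. In each of these 3, a single KO spleen library was far above the other spleen libraries, and 0 of the 3 passed.

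Among leukocyte lincRNAs that did not pass, Pvt1 had 117 to 281 counts in BM and 52, 26 and 221 in spleen (log2 fold change -1.04 ± 0.74, adjusted p = 0.383). Gm14005 had 28 to 113 counts in BM and 0, 0 and 94 in spleen, and Mirt1 36 to 132 in BM and 48, 218 and 68 in spleen. In all 3 the single discordant spleen library was a KO sample. Some of the most abundant members were also without a call. 1810058I24Rik measured 50.6 to 69.4 CPM in BM and 85.7, 88.2 and 69.1 CPM in spleen (log2 fold change 0.46 ± 0.19, adjusted p = 0.128). Gm28875 measured 77.8 to 160 CPM in BM and 62.1, 76.6 and 102.5 CPM in spleen (-0.60 ± 0.28), Gm10076 28.0 to 75.8 CPM and 35.6, 48.8 and 25.4 CPM (-0.36 ± 0.39), and Gm26825 45.6 to 97.8 CPM and 29.5, 43.1 and 14.4 CPM (-1.06 ± 0.41, adjusted p = 0.103). 2310001H17Rik, beside Cd69, measured 6.55 to 13.4 CPM in BM and 9.07, 7.89 and 15.8 CPM in spleen (0.26 ± 0.49).

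The remaining higher members were 5031425E22Rik (log2 fold change 1.69 ± 0.35), divergent from the chromatin gene Kmt2e at 172 bp, C030034I22Rik (2.44 ± 0.52) and C920006O11Rik (2.58 ± 0.64). Without the WT spleen sample, 5031425E22Rik fell to 1.28 and C920006O11Rik to 2.41, and both lost the call. C920006O11Rik also lost it without KO BM 2 or KO BM 3.

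In the other direction, Gm4316 (chr8:123165255-123178765) had the lowest adjusted p. It measured 27.8, 34.0 and 43.5 CPM in WT BM, 44.5, 44.3 and 49.5 CPM in KO BM and 5.34, 6.61 and 9.96 CPM in spleen. No spleen library came near the BM range (log2 fold change -2.55 ± 0.32, adjusted p = 0.000994). Tmem250-ps (chr2:26136814-26140521), an abundant pseudogene-named transcript, fell less, from 123 to 229 CPM in BM to 81.5, 79.9 and 77.1 CPM in spleen (log2 fold change -0.997 ± 0.22, adjusted p = 0.0124). Without the WT spleen sample its log2 fold change was -0.87 and did not pass. AI839979 (log2 fold change -1.08 ± 0.33, adjusted p = 0.0463) was lost in 8 of the 9 fits that left out 1 sample, all except that without KO spleen 1.

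A group of 5 members had 0 counts in all 3 spleen libraries. Gm26896 (61 to 110 counts in BM) was at least 27.5-fold lower, and its exons overlap BC025920 on the opposite strand. 2010110K18Rik (50 to 107 counts), which starts 276 bp from Cdc25c and runs away from it, was at least 24.7-fold lower. Cdc25c, the phosphatase that starts mitosis, was lower as well (adjusted p = 0.00223). C430042M11Rik (45 to 79 counts) was at least 18.7-fold lower, 4930558J18Rik (51 to 109 counts) at least 22.7-fold lower and AI427809 (5 to 182 counts) at least 29.9-fold lower. These bounds are set by the floor of 3 counts in each spleen library. Low counts were common in spleen. Of the protein-coding genes with a mean of 50 to 500 counts, 29.2%, 16% and 16% had 3 counts or fewer in WT spleen, KO spleen 1 and KO spleen 2. In the BM libraries 0.827% to 2.56% of them did. The share of all genes at 0 in all 3 spleen libraries is not given here. The adjusted p of the 5 ran from 0.00199 to 0.00978. All 6 G2/M genes were lower in the same comparison, and the part of cycling cells in these differences was not tested.

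The 3 further members were low in spleen without being at 0 in every library. Gm26762 had 19 to 87 counts in BM and 1 count in each spleen library (ratio 47.3, interval 16 to 231, adjusted p = 0.00524), and overlaps Gpi1 on the opposite strand. 4933404O12Rik had 125 to 589 counts in BM and 0, 1 and 29 in spleen (log2 fold change -5.52 ± 1.42, adjusted p = 0.0241). The call was lost without KO BM 1, and the log2 fold change ran from -8.85, without KO spleen 2, to -4.59 with 1 sample left out. Lockd (chr6:134929092-134956798), a lincRNA downstream of the cell cycle inhibitor gene Cdkn1b, had 755 to 1433 counts in BM, 0 in WT spleen and 181 and 72 in KO spleen. It was below the BM range in each spleen library (log2 fold change -4.04 ± 1.21, adjusted p = 0.0454), but the call was lost in 7 of 9 fits that left out 1 sample. Cdkn1b was not lower, with a log2 fold change of 0.70 ± 0.27 (adjusted p = 0.0955).

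**Figure D2:**
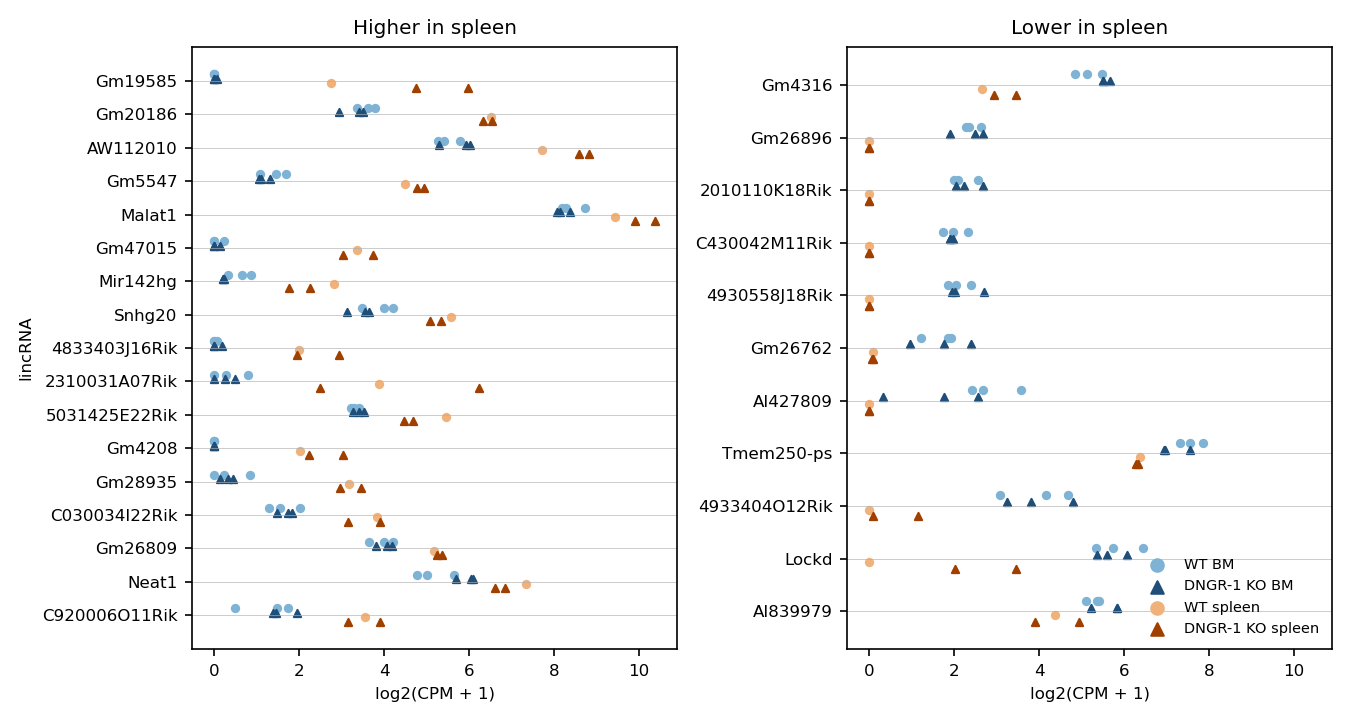
Level of the 28 called lincRNAs in each of the 9 samples, as log2(CPM + 1), with circles for WT and triangles for DNGR-1 KO, BM in blue and spleen in orange, ordered by adjusted p within the 17 higher and the 11 lower ones. In every row the 3 spleen points lie to one side of the 6 BM points, and Gm26896, 2010110K18Rik, C430042M11Rik, 4930558J18Rik and AI427809 have all spleen points at 0.

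For promoter sequences, 61 of the 120 members and 16 of the 28 called ones matched a RefSeq entry by symbol. Shown are the first 3 higher and the first 3 lower members by adjusted p that had one, so that the start regions of transcripts that differ between the tissues can be read side by side. Each window runs from 250 bases before to 50 bases after the RefSeq start on GRCm38.p6, 5′ to 3′ on the strand of the gene, and capitals mark matches on either strand to 9 motifs.
Gm19585: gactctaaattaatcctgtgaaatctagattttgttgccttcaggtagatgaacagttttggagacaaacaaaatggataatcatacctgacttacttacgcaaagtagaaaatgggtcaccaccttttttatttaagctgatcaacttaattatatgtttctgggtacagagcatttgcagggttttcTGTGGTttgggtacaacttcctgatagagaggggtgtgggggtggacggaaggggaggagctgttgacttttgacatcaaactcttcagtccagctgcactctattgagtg
AW112010: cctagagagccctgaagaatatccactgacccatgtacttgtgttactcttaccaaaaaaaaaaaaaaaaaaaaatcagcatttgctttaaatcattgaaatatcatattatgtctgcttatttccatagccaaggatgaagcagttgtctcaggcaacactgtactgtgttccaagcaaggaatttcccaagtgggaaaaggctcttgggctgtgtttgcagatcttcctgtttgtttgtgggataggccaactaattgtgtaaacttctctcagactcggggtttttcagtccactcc
Gm5547: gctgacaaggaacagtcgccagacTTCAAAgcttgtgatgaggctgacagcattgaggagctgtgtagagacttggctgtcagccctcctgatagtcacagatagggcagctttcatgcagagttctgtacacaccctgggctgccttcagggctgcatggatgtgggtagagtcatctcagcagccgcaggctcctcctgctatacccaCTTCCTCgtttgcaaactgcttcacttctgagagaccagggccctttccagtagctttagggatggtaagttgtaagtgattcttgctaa
Gm4316: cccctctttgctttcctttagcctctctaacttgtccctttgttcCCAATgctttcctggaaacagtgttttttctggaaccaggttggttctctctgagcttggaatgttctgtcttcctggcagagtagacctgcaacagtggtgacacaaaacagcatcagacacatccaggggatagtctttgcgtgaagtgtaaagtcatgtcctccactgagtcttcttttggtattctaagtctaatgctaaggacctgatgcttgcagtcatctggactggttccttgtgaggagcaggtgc
C430042M11Rik: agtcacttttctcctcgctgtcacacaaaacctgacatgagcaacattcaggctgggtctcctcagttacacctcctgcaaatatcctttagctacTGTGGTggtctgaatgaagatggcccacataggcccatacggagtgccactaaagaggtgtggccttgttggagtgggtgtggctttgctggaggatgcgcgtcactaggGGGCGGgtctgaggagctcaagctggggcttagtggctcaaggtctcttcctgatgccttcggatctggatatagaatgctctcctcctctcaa
4930558J18Rik: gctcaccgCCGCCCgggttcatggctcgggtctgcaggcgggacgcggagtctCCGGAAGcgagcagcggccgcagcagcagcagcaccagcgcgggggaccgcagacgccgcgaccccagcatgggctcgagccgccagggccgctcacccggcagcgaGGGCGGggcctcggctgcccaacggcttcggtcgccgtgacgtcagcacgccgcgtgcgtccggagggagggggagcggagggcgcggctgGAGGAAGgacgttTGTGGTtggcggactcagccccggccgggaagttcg
The first 3 are higher in spleen and lie at chr17:52149039-52149338 (plus), chr19:11050517-11050816 (minus) and chr3:105815317-105815616 (plus). The last 3 are lower and lie at chr8:123172312-123172611 (plus), chr17:83854369-83854668 (minus) and chr1:57377495-57377794 (minus). RefSeq and GENCODE gave the same start for C430042M11Rik and 4930558J18Rik and starts 27 bp apart for Gm5547. For AW112010, Gm4316 and Gm19585 the RefSeq start lay 5242, 7307 and 162874 bp inside the GENCODE gene.

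The motifs, with the share of all 32851 RefSeq promoter windows of 300 bases that hold each, were the TATA box TATAAA (13.6%), the CCAAT box CCAAT (37.4%), the GC box GGGCGG (35.7%), the E2F core TTTCCCGC (1.07%), the cell cycle homology element TTTGAA (17.9%), the PU.1 core GAGGAAG (13.6%), the RUNX core TGTGGT (16.8%), the T-box core TCACACCT (1.28%) and the ETS core CCGGAAG (8.86%). They do not overlap in these windows. Gm19585 held a RUNX core 61 bases before the start. Gm5547 held a PU.1 core 40 bases before the start and a TTTGAA 226 bases before it, both on the opposite strand. AW112010 held none of the 9. Among the lower members, Gm4316 held a CCAAT, C430042M11Rik a GC box and a RUNX core, and 4930558J18Rik, whose start lies 76 bp from the divergent start of 1700066M21Rik, held GC boxes on both strands, an ETS core, a PU.1 core and a RUNX core. These matches are descriptions of letters in the windows.

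The tissue differences of members and of their nearest protein-coding genes could be set side by side for 92 members. Across these pairs the correlation of the log2 fold changes was 0.27 (Pearson) and 0.204 (Spearman), given as a description since the pairs share libraries. For the 14 divergent pairs it was 0.63 and 0.538, and without 2010110K18Rik and Cdc25c it was 0.0823 and 0.423 over 13 pairs. Of the 25 called members with a tested neighbour, 4 had a called neighbour (16%, beside the 19.5% of all genes tested that were called), and all 4 pairs had the same direction. These were 4833403J16Rik with Gimap5, 2310031A07Rik with Havcr2, Gm5547 with Rap1a (0.97 ± 0.24 for Rap1a) and 2010110K18Rik with Cdc25c. 4930558J18Rik, in contrast, was at 0 in spleen while 1700066M21Rik, 76 bp away, had a log2 fold change of 0.10 ± 0.51.

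**Figure D3:**
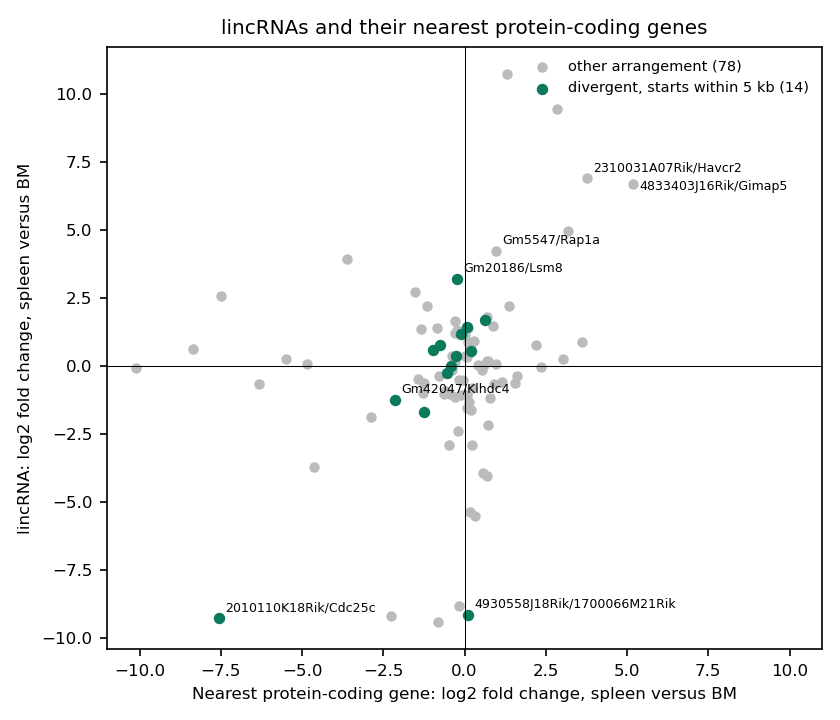
Log2 fold change between spleen and BM of 92 lincRNAs (y axis) against that of the nearest protein-coding gene (x axis), with the 14 divergent pairs in green. Values near -9 or 9 on the y axis belong to lincRNAs at or near 0 in one tissue and depend on the fit, and the pair of 2010110K18Rik and Cdc25c stands apart from the other divergent pairs.

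DNGR-1 KO BM pre-cDCs were compared with WT BM pre-cDCs that had developed in the same kind of host. The WT marrow was CD45.1 and the KO marrow CD45.2, so loss of the receptor and the CD45 background cannot be told apart here. Of the 120 members, 113 could be tested over the 6 BM samples and 0 passed an adjusted p of 0.05 in edgeR's quasi-likelihood test, beside 0.0307% of the 13016 genes tested, which is 4 genes. At an unadjusted p under 0.05 there were 2 members (1.77%, beside 3.83% of genes). DESeq2 and limma-voom also called 0 members. Log2 fold changes ran from -1.46 to 0.93, with 108 of 113 within 1 of 0, a median of -0.04 beside -0.00447 over all genes, and 60 below 0 (53.1%, beside 50.4%). Between the 6 BM libraries themselves, 85 of the 120 members spanned more than 1 on the log2 CPM scale. The median SE was 0.46, against 0.33 over all genes, and with 3 samples against 3 an exact permutation test cannot go below p = 0.1. The CPM of WT and KO did not overlap for 4 tested members higher in KO (3.54%, beside 4.96% of genes) and for 4 lower in KO (3.54%, beside 4.59%). The 7 members that could not be tested were Gm19585, Gm47015, Mir142hg, 4833403J16Rik, 2310031A07Rik, Gm4208 and Gm28935, all low in BM.

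The 5 members with the lowest unadjusted p all had an adjusted p of 0.861. Epb41l4aos, a snoRNA host beside Epb41l4a, measured 18.7, 8.04 and 7.16 CPM in WT and 6.42, 2.99 and 4.31 CPM in KO. The groups did not overlap, but WT BM 1 was far above the rest, and the log2 fold change of -1.32 ± 0.48 (unadjusted p = 0.0207) became -0.74 without it. Neat1 measured 26.4, 31.1 and 48.8 CPM in WT and 50.9, 66.8 and 64.6 CPM in KO, again without overlap (log2 fold change 0.77 ± 0.28, unadjusted p = 0.0224). Snhg12 measured 16.7, 11.8 and 6.498 CPM in WT and 8.05, 6.13 and 4.51 CPM in KO, with overlap (-0.91 ± 0.42). Gm26917, at the ribosomal RNA locus, measured 1397, 1020 and 843 CPM in WT and 965, 621 and 589 CPM in KO, also with overlap (-0.60 ± 0.27). Gm17300, which overlaps Rcc1, Snhg3 and 2 snoRNA genes on the opposite strand, measured 15.7, 8.61 and 7.37 CPM in WT and 7.14, 4.07 and 6.31 CPM in KO (-0.86 ± 0.41). In 4 of these 5, all except Neat1, the highest value was that of WT BM 1.

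A list of noncoding RNAs known from leukocytes or as snoRNA hosts, not limited to the lincRNA biotype, had 16 genes tested in BM. Of these 0 passed, 12 had a log2 fold change below 0, and the median was -0.57, beside the -0.00447 over all genes. WT BM 1 was the highest BM library in 11 of the 16. Without it, 11 were below 0 and the median was -0.32. Above 0 were Mir22hg (1.07) and Dleu2 (0.44), both microRNA hosts, and Gm14005 and Mirt1. In the tissue comparison 18 of its genes were tested, with 3 higher and 1 lower in spleen, beside 7.28% and 12.3% of all genes tested. Of its 8 members, Mir142hg could not be tested in BM, and the others were Mir17hg (-0.49 ± 0.73), Pvt1 (-0.67 ± 0.39), which lies beside Myc, Snhg6 (-0.45 ± 0.35), Snhg12, Epb41l4aos, Gm14005 (0.90 ± 0.51), also named Morrbid and known for control of Bcl2l11 in myeloid cells, and Mirt1 (0.48 ± 0.54). The snoRNA hosts of other biotypes had values of the same sign as Snhg6, Snhg12 and Epb41l4aos. Gas5 was at -0.57 ± 0.27, Snhg3 at -0.92 ± 0.39 and Snhg15 at -0.91 ± 0.38, with an adjusted p of 0.861 each. Snhg1, Snhg5, Snhg8 and Snhg17 were between -0.64 and -0.40. Gm14005 measured 3.16, 1.45 and 2.35 CPM in WT and 3.21, 4.22 and 5.66 CPM in KO, with no overlap but nearly touching groups. Lockd (39.1 to 85.6 CPM in WT, 40.4 to 65.9 CPM in KO) and Malat1 gave -0.21 ± 0.33 and -0.23 ± 0.23. 2310001H17Rik, the member near Clec9a, gave -0.09 ± 0.37 (unadjusted p = 0.812).

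**Figure D4:**
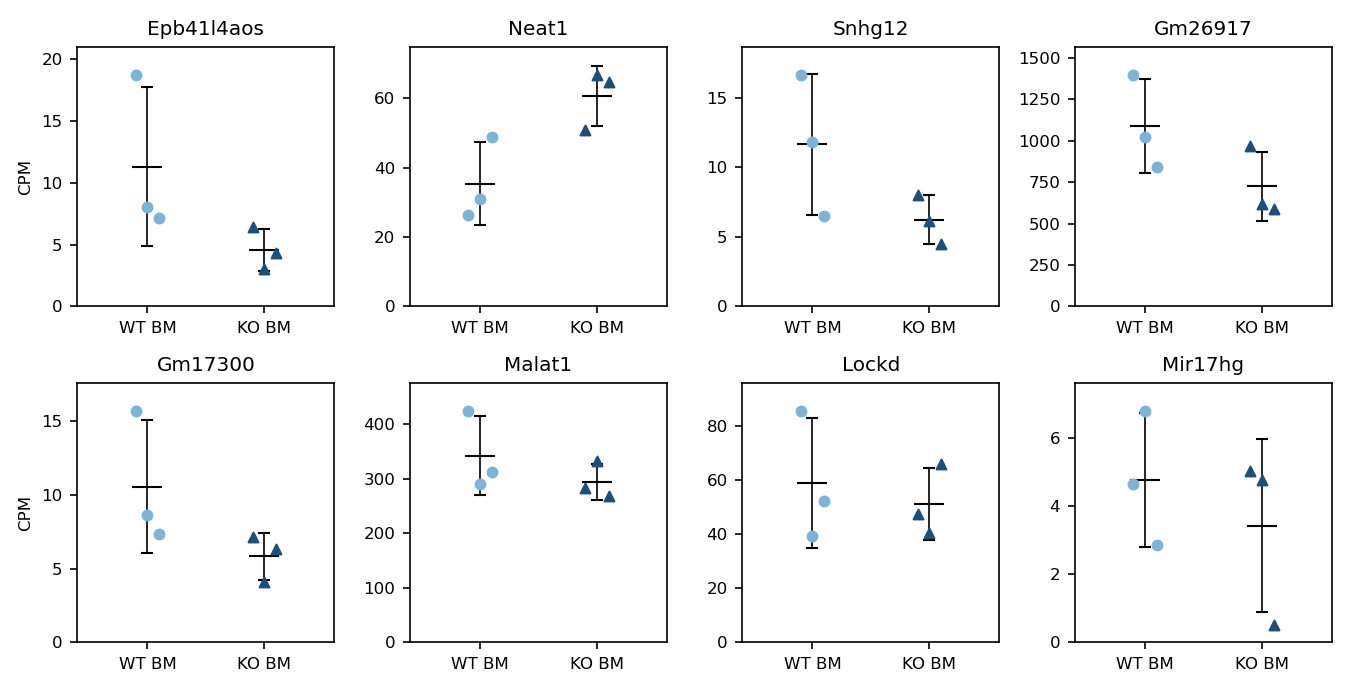
CPM of 8 lincRNAs in the 3 WT (circles) and 3 DNGR-1 KO (triangles) BM samples, with bars for the mean and SD, for the 5 lincRNAs with the lowest unadjusted p and for Malat1, Lockd and Mir17hg. WT and KO points are separate for Epb41l4aos, Neat1 and Gm17300 and overlap for the other 5, and none passed the adjusted test.

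In spleen, 1 WT sample stood against 2 KO samples, so that differences are given without a test, as log2 CPM with a prior count of 2. A log2 difference over 1 in both KO samples was seen in 16 members (13.3%, beside 15.1% of genes), and under -1 in 11 (9.17%, beside 7.74%). Of the 16, 11 had 3 counts or fewer in the WT library. The 2 KO samples differed from each other by over 1 in 56 members (46.7%, beside 39.6% of genes). The median difference of the members was 0.24, beside 0.03 over all genes. With either KO sample left out, the median of the members was 0.12. Members with 3 counts or fewer numbered 30 in WT spleen and 17 and 24 in KO spleen, against 5 to 8 in each BM library. Genes with any count numbered 11698 in WT spleen, 13132 and 13169 in KO spleen and 14862 to 18122 in BM. Among genes with a mean of 50 to 500 counts, the share at 3 counts or fewer in WT spleen, KO spleen 1 and KO spleen 2 was 25.6%, 15.4% and 20.5% of 78 members and 29.2%, 16% and 16% of 3992 protein-coding genes.

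The 5 highest differences, among members with a mean of at least 50 counts in spleen, all came from a WT count of 0. Gm5113, divergent from the zinc finger gene Zfp146, had 193 and 274 counts in KO (at least 60.3-fold), Gm20300 206 and 164 (at least 38.9-fold), AI504432 121 and 154 (at least 36.6-fold), Gm36445 109 and 121 (at least 28.7-fold) and 3300005D01Rik 83 and 163 (at least 25.9-fold). These bounds use the lower KO sample and a floor of 3 counts in WT. All 5 had counts in every BM library of both genotypes, 17 or more. Lockd showed the same form, with 0 counts in WT spleen and 181 and 72 in KO (at least 17.1-fold). At the other end, Gm10384 had 211 counts in WT and 0 in both KO libraries, and 5033406O09Rik 172 and 0 in both. 4632415L05Rik had 666 in WT against 3 and 325, Gm31718 355 against 82 and 3, and BC043934 423 against 188 and 3. In each of these last 3, one KO library had 3 counts and the other 82 or more.

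**Figure D5:**
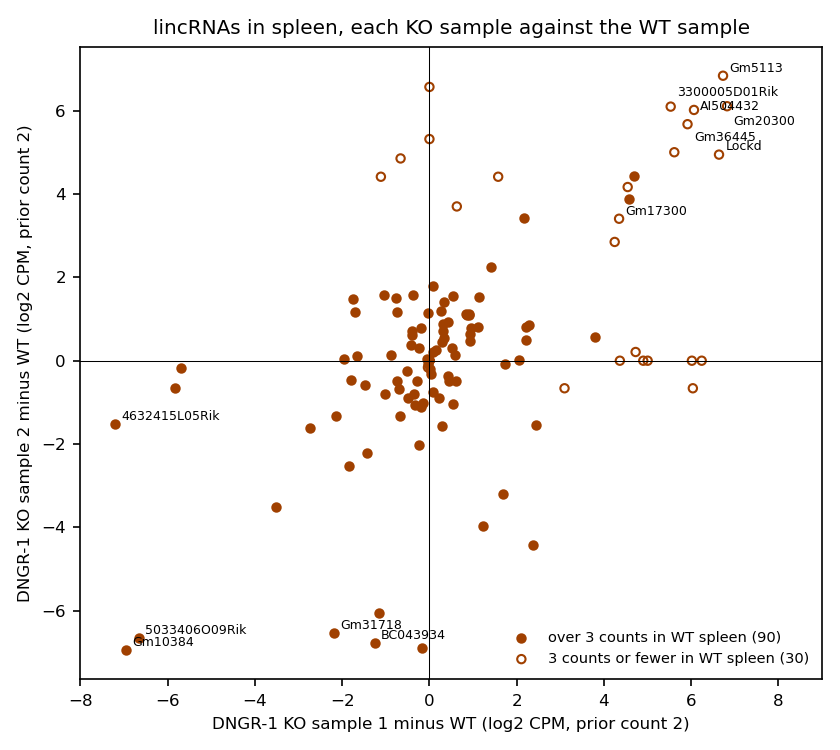
Log2 CPM difference of each of the 120 lincRNAs between DNGR-1 KO spleen sample 1 (x axis) or 2 (y axis) and the single WT spleen sample, with open circles for the 30 lincRNAs with 3 counts or fewer in WT. Open circles make up most of the upper right, where Gm5113, Gm20300, AI504432, 3300005D01Rik and Gm36445 lie, and points far along one axis and near 0 on the other mark lincRNAs whose KO samples differed.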

How the data were processed

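Bulk RNA-seq of 9 pre-cDC samples was analysed. Per the labels, groups were defined by tissue and genotype. The authors deposited expected counts per gene, without normalization, in which 25.6% of nonzero values were not whole, so reads shared between genes may have been divided. The submitters' processing notes name Trimmomatic 0.36, STAR 2.5.2, RSEM 1.3.0, DESeq2 1.18.1, R 3.4.3 and GRCm38. The deposited variance-stabilized values were not used. The strand setting is not given in the sources used here.

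Counts were rounded. GENCODE M21 supplied biotypes, coordinates and symbols for 51719 of 51912 identifiers. Tests used R 4.3.3 and edgeR 4.0.16 (TMM, filterByExpr, quasi-likelihood test, Benjamini-Hochberg adjustment over all genes tested, threshold 0.05). Alternatives were DESeq2 1.42.0, limma 3.58.1 (voom), other filters, scaling, a replicate block, a congenic score as covariate and each sample left out. The SE came from the F statistic. CPM were scaled by TMM. Intervals of ratios are exact and, like bounds at 3 counts, cover counting error only. Scripts were tested on simulated data.

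The members and lists were chosen with earlier results of these data known. Named are the 10 highest per kb, in each tissue direction the 10 with the lowest adjusted p (the others called are given too), in BM the 5 lowest p, in spleen the 5 highest and 5 lowest differences, listed genes, small RNA hosts, the lincRNA near Clec9a and those at the threshold. In the plots and text, Lockd and Malat1 are repeated for BM because the tissue comparison names them. Samples were pools of mice from chimeras. Whether pools of a group shared donors is not stated, and p-values measure the spread between these samples. No 2 replicates were alike within counting noise (chi-square per gene 29.1 to 258).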

Additional observations from a re-analysis of the deposited data

Results flagged for a closer look

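For Neat1 and Gm17300 the KO values lay on opposite sides of the WT values in the 2 tissues, without overlap in either, and neither passed the adjusted test in BM. Neat1 was higher in all 3 KO BM samples than in the 3 WT ones (log2 fold change 0.77) and lower in both KO spleen samples than in the WT one (log2 difference -0.61). Gm17300 was lower in KO BM (log2 fold change -0.86) and higher in KO spleen (3.88), where its counts were 2 in WT and 79 and 53 in KO. With 1 WT sample in spleen, no overlap there means only that both KO values lay on one side of it. In BM, 3.54% of members were higher and 3.54% lower in KO without overlap, beside 4.96% and 4.59% of genes. The share of all genes with opposite sides in the 2 tissues was not counted, and the difference between tissues was not tested.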

How the results depend on the processing

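In the tissue comparison, 28 members were called, and 25 to 38 when each sample was left out in turn, with 15 to 21 higher and 8 to 20 lower. With the replicate block the count was 17, of which 9 higher. Deviations of same-numbered BM samples correlated at 0.103, 0.099 and -0.0814, and the main fits did not take the numbers as pairing. These values cannot exclude that same-numbered WT and KO samples came from the same mice. S100a8 had 2995 and 3297 counts in WT and KO BM 1, 227 and 293 in BM 2 and 831 and 818 in BM 3. Klf1 differed more, with 4153 and 233 counts in WT and KO BM 2. With DNGR-1 KO samples only, 11 members were higher. With limma-voom, 17 were lower. Of the members without exon overlap, 16 were called, 9 higher and 7 lower, since only 71 remained. Of the called members, 13 were called in all 16 alternative fits, among them Gm20186, AW112010, Malat1 and Mir142hg.

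In BM, 0 members were called in every alternative, the block and each sample left out included. There the number at an unadjusted p under 0.05 ran from 0 to 13, the latter without KO BM 1. None of the 28 called tissue differences reversed, and the calls were lost 46 times over the alternative fits. Tissue differences without a call reversed in 6 named members. With samples left out, log2 fold changes ran from -2.41 to 0.52 in 4833445I07Rik, -0.83 to 0.13 in Gm42418, -0.68 to 0.63 in Gm26917, -0.43 to 0.71 in Mirt1, -0.14 to 1.49 in 2900076A07Rik and -0.10 to 0.45 in 2310001H17Rik. With KO samples only, the first 3 were at 0.46, 0.12 and 0.62, and 4833445I07Rik was at 0.0472 with RLE size factors and 0.0468 with DESeq2. In BM the ranges that crossed 0 were -0.14 to 0.31 in 2900097C17Rik, -0.29 to 0.26 in 2310001H17Rik, -0.44 to 0.17 in Lockd and -0.86 to 0.0237 in Mir17hg, and the congenic score put 2900097C17Rik at -0.085 and 2310001H17Rik at 0.0776. The median tissue difference, 0.04 in the fit, was -0.35 as the difference of mean log2 CPM with a prior count of 0.5 (all genes, -0.44) and 0.30 without the WT spleen sample. The all-gene value at that prior count and the leukocyte list without WT BM 1 were chosen after seeing the data. A threshold of 20 or 100 counts would give 196 or 76 members. The floor of 3 counts was 0.126 to 0.175 CPM in the spleen libraries and 0.143 to 0.172 CPM in the BM libraries, so depth was similar. Fewer genes had any count in spleen, 11698 to 13169 against 14862 to 18122 in BM. The reason for this was not tested. No test of genotype was run in spleen, which had 1 WT sample.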
